A study of Mus musculus with 816 samples.

Results

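Norepinephrine was added together with LPS to cultured mouse microglia for 4 h, and gene expression was compared with that of microglia given LPS alone for the same time. The comparison rests on 15 of the 784 cultures in the data, chosen by their treatment and time labels: 8 labelled LPS_hi with norepinephrine and 7 labelled LPS_hi, among 816 samples in all. The series is a stimulus panel in which neonatal mouse microglia from a commercial supplier were grown in multi-well plates. They were exposed to single agents or combinations of agents, and RNA was profiled by 3′-end sequencing. LPS, a cell wall component of Gram-negative bacteria, was used at 0.0001 µg/µl in both groups. The labels give no norepinephrine dose for the combined treatment, whereas the cultures with norepinephrine alone carry a label of 1 µM. Further groups at 4 h served as points of reference: LPS_hi with nicotine (8 cultures), LPS_hi with ATP (6), norepinephrine alone (7), nicotine alone (8) and ATP alone (5), both at 1000 µM, and the chemokines CCL2 and CCL7 (7 each, 0.0001 µg/µl). The labels name no untreated culture at 4 h among them. No age beyond neonatal, sex or strain was used here, and the labels do not say whether cultures of a group came from separate animals, so that p-values measure the spread between wells.

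All 63 cultures at 4 h were grown on 2 culture plates, each with its own lot of cells. Plate 1 held 4 cultures with LPS and norepinephrine and 3 with LPS. Plate 2 held 4 of each. On plate 1 all 4 norepinephrine cultures were in middle wells, as were 2 of the 3 LPS cultures, the remaining one being at the left edge. Of these 4, 2 were in a library pool (libraries pooled together) that held no culture with LPS alone. On plate 2 the norepinephrine cultures were in 3 bottom-edge wells and 1 corner well, whereas 3 LPS cultures were in the middle and 1 at the left edge. Well position and treatment therefore cannot be told apart on plate 2. Depth, recovered from the size of the smallest step between expression values, was 2573000, 4398000 and 9066000 mapped reads (lowest, median, highest) with norepinephrine and 1202000, 3222000 and 13740000 with LPS alone. Expression is given as CPM, the mapped reads of a gene scaled to 1000000 mapped reads in each library. Genes above 5 CPM numbered 6836, 7731 and 8601 with norepinephrine and 6584, 6962 and 8180 without it. Mitochondrial transcripts took 0.867%, 1.78% and 5.07% of the values with norepinephrine and 0.57%, 1.08% and 1.98% without it. On plate 1 these shares did not overlap, at 2.49% to 5.07% with norepinephrine and 1.29% to 1.98% without it, and neither did the genes above 5 CPM, at 8393 to 8601 and 7781 to 8180. The 2 norepinephrine cultures in the pool without LPS cultures had mitochondrial shares of 4.61% and 5.07%, and the other 2 had 2.49% and 2.87%. The part of these shares and gene numbers in the results was not tested. No pair of cultures within either group shared a value above 0 for any gene.

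The cells carried the markers of a list that covers microglia and macrophages together and so does not separate them. All 14 markers of microglia and macrophages, among them Csf1r, Aif1, C1qa and Itgam, were above 5 CPM on average, and their summed level was 22260, 29730 and 31210 CPM with LPS and 20290, 25810 and 30010 CPM with norepinephrine (exact permutation within plates, two-sided p = 0.75). Fcer1g, a signalling subunit of Fc receptors, had the highest mean among them, 12470 CPM. Only Cd14, the co-receptor that passes LPS to TLR4, changed among the 14: it read 392.6, 505.1 and 1059 CPM with LPS and 2049, 2517 and 2874 CPM with norepinephrine, a rise of 2.06 on the log2 scale (limma, adjusted p = 2.5e-05, 8 of 8 cultures above every LPS culture). Markers of 7 other cell types were low. Of 64 such genes 16 were abundant enough to test, and limma called 0 of them changed (5 at an unadjusted p under 0.05). Summed levels reached at most 47.5 CPM for astrocytes, led by Aldoc, 87.6 CPM for the oligodendrocyte lineage, led by Cnp, and 21.4 CPM for neurons, led by Stmn2. Neutrophil markers, led by Mmp8, summed to at most 16.8 CPM and lymphocyte markers, led by Ms4a1, to 27.4 CPM. Endothelial markers, led by Pecam1, and those of fibroblasts and pericytes, led by Acta2, ranged more widely, to 234.3 and 608.4 CPM in single cultures. Defining markers listed at 0 in all 15 cultures included Mog, Olig1, Olig2, Snap25, Nefl, Slc17a7, Cldn5, Tek, Esam, Dcn, Lum, S100a9, Ngp, Ltf, Retnlg, Ly6g, Cd3g, Trac and Cd79b. In bulk RNA such as this, fewer cells of a type and less RNA per cell cannot be told apart.

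As background, norepinephrine is a catecholamine released in the brain mainly by neurons of the locus coeruleus, and microglia are known to respond to it through adrenergic receptors. Adrenergic receptors that couple to the G protein subunit encoded by Gnas raise cAMP, which activates protein kinase A and, through it, transcription factors of the CREB family. LPS acts through TLR4 and turns on NF-κB and interferon regulatory factors, and with them cytokines, chemokines and interferon-β. Agents that raise cAMP are known to dampen part of this program in macrophages while leaving or raising other parts.

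Addition of norepinephrine lowered the transcripts of many LPS-induced cytokines and chemokines within 4 h, Tnf, Ccl3, Ccl4, Il27 and Ifnb1 among them, and raised a separate group that included Trem1, Timp1, Fosl2, Il10, Il1rn and Pfkfb3. Of 10089 genes tested, 340 (3.37%) were called at an adjusted p under 0.05, 192 higher (1.9%) and 148 lower (1.47%) with norepinephrine. Expression was tested with limma on log2(CPM + 1), with culture plate in the model and all 4 LPS_hi groups sharing 1 estimate of the spread; a fold change on this scale understates the change of genes with few reads. The median gene moved by 0.12 on the log2 scale, so the balance between rises and falls depended on scaling: 142 genes were higher and 229 lower once every culture was centred on its median (38.3% higher, against 56.5%), and 144 higher and 192 lower after quantile normalization (42.9%). Most changes were large, with 285 of the 340 at least 2-fold. Direction was the same on both culture plates for 337 of the 340 called genes and for 5472 of all 10089 tested. The groups overlapped on neither plate in 151 of the called genes and 174 of those tested. As the call itself used both plates, the counts among called genes are not independent of it. The size differed between plates: the median absolute log2 fold change of the called genes was 1.03 on plate 1 and 1.93 on plate 2. The plates hold different lots of cells, and on plate 2 well position cannot be told apart from treatment. The part of either in this difference of size was not tested. Fewer genes were called without the plate term (208), from these 15 cultures alone (116) or from plate 1 alone (21). With library pool in place of plate 344 were called, 287 of them among the 340. Junb, Cish, Zfp36 and Ifih1, described below, then lost their calls. Of the 65 called genes named by the rule given with the methods, the 15 cultures alone kept 40, and those lost are listed at the end. Cd14 is not among the 65, and no alternative fits are given for it.

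**Figure D1:**
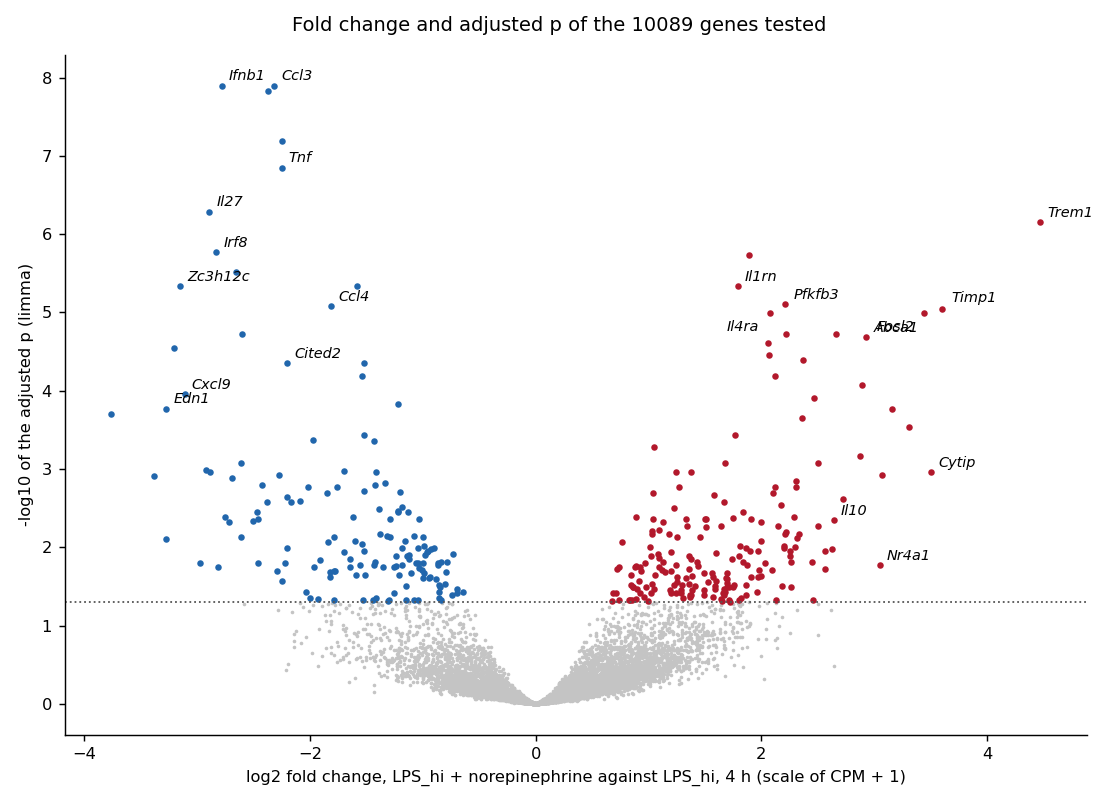
Log2 fold change with norepinephrine added to LPS (x axis) against −log10 of the adjusted p from limma (y axis) for the 10089 genes tested, 1 point a gene; red, 192 genes higher, blue, 148 lower, dotted line, adjusted p of 0.05. Trem1 (4.47) stands farthest to the right, and Ifnb1, Ccl3 and Tnf have the smallest adjusted p among the labelled genes that fell.

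Inflammatory cytokines fell more often than they rose. Of 28 on the list 19 were expressed well enough to test, 6 fell and 1 rose, and their median log2 fold change was −0.45, against 0.12 for all genes. Tnf, the archetypal early product of LPS-stimulated macrophages, read 13380, 16740 and 25710 CPM with LPS (lowest, median and highest of 7 cultures) and 1834, 3685 and 6771 CPM with norepinephrine (8 cultures). Every norepinephrine culture lay below every LPS culture; where a count of cultures is given for other genes, it is the number on the stated side of the LPS median. Tnf fell by 2.25 on the log2 scale (standard error 0.22, adjusted p = 1.4e-07), with −2.66 on plate 1 and −1.91 on plate 2. Il27, a subunit of a cytokine that steers T cell responses, went from 1305, 2825 and 3790 CPM to 89.3, 378.1 and 413.9 CPM (log2 fold change −2.89, adjusted p = 5.1e-07, 8 of 8 cultures). Ifnb1, which encodes interferon-β, read 10.9, 20.1 and 33.3 CPM with LPS and 0.329, 2.31 and 5.15 CPM with norepinephrine (−2.78, adjusted p = 1.3e-08, 8 of 8 cultures). Again the groups were separate. Il12b, the p40 chain shared by interleukins that drive T helper cells, fell by 2.17 (adjusted p = 0.0026, 8 of 8), and Tnfsf9, the ligand of a costimulatory receptor of T cells, fell by 1.42 (adjusted p = 0.0016) with 6 of 8 cultures below the LPS median. Il18 fell by 1.59 (adjusted p = 0.023, 8 of 8; −0.80 on plate 1, −2.31 on plate 2) and lost its call without LPS_hi replicate 5 (adjusted p = 0.06).

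Not all cytokines moved this way. Il1b, whose product needs cleavage before release, read 881.3, 1401 and 1881 CPM with LPS and 1643, 2331 and 3573 CPM with norepinephrine, a rise of 0.89 (adjusted p = 0.017, 8 of 8 cultures above the LPS median). Most of that difference lay on plate 2 (1.38, against 0.30 on plate 1). The call was lost with median centring, from the 15 cultures alone and in a fit of all 9 groups at 4 h. Il1a, its close relative, did not pass the test at 2096, 2570 and 5185 CPM with LPS and 2490, 3245 and 4295 CPM with norepinephrine, nor did Ebi3 (log2 fold change −0.03), the partner chain of Il27, or Il15 (−0.45).

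Chemokines, the secreted proteins that attract leukocytes, were the list with the largest share of called genes: 8 of 20 tested (40%) fell and 0 rose, with a median log2 fold change of −1.11, and 10 fell with median centring. Ccl3 and Ccl4, which attract monocytes and T cells, were among the clearest. Ccl3 read 1480, 1605 and 2084 CPM with LPS and 294.4, 343.3 and 408.6 CPM with norepinephrine, and Ccl4 read 7126, 8860 and 10520 CPM and 1606, 2464 and 3477 CPM. Both were separate in all 8 cultures and fell by nearly the same amount on both plates, with log2 fold changes of −2.34 and −2.29 for Ccl3 and −1.73 and −1.90 for Ccl4 on plates 1 and 2 (adjusted p = 1.3e-08 and 8.3e-06 over both plates). The genes are similar in sequence, and reads shared between them could be assigned to either. Cxcl9, an interferon-induced attractant of T cells, went from 140.7, 366.0 and 561.7 CPM to 4.81, 59.2 and 131.3 CPM (−3.11, adjusted p = 0.00011, 8 of 8), with −1.25 on plate 1 and −4.72 on plate 2. Ccl9 fell by 1.52 without overlap, and Cxcl11 fell by 1.18 in 8 of 8 cultures. For the monocyte attractants Ccl2 and Ccl7 the fall rested mainly on plate 2: Ccl2 fell by 1.70 in all (adjusted p = 0.012, 8 of 8; −0.36 on plate 1, −2.88 on plate 2), and Ccl7 fell by 1.42 in all (adjusted p = 0.016, 7 of 8; −0.31 on plate 1, −2.35 on plate 2). Cxcl2, a neutrophil attractant, showed the reverse balance (−1.73 and −0.45, adjusted p = 0.016 over both, 7 of 8). Ccl2, Ccl7 and Cxcl2 all lost their calls without the plate term and from the 15 cultures alone. Cxcl11 lost its call in a fit of all 9 groups at 4 h. Cxcl10 just missed the threshold at an adjusted p of 0.051, although all 8 norepinephrine cultures, at 1408 to 2617 CPM, lay below the LPS range of 2796 to 4021 CPM (exact permutation p = 0.00082, the smallest that 2450 arrangements within plates allow; 0.047 after adjustment over all 10089 genes, 174 of which had it). Ccl5 and Cxcl1 did not pass the test (−0.25 and −0.53).

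**Figure D2:**
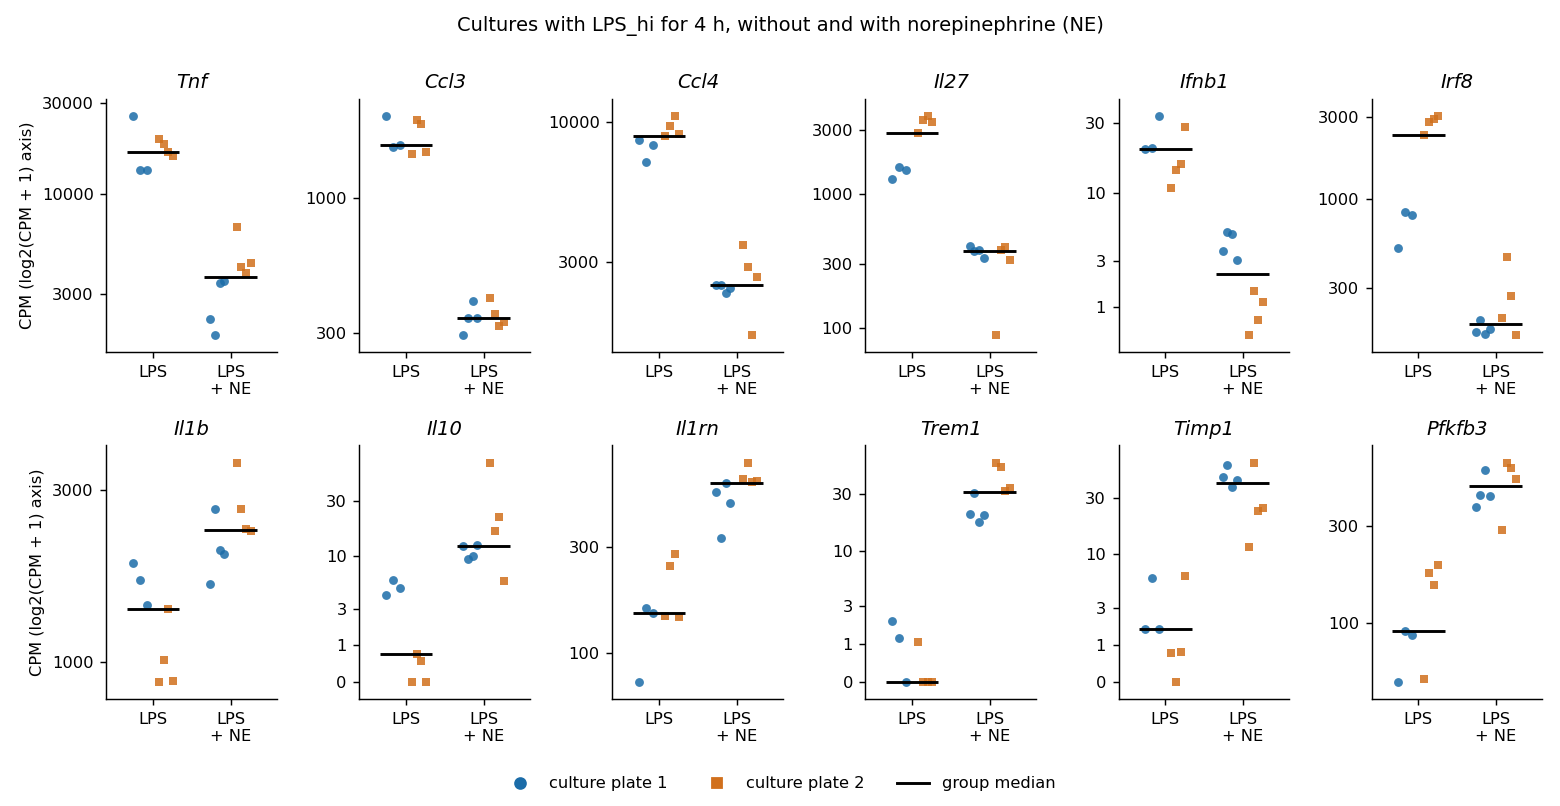
CPM of 12 genes in each culture (y axis, spaced by log2(CPM + 1) and differing between panels) with LPS alone (7 cultures) and with norepinephrine added (8 cultures); blue circles, plate 1, orange squares, plate 2, black line, group median. Tnf, Ccl3, Ccl4, Il27, Ifnb1 and Irf8 were lower in every norepinephrine culture than in any LPS culture, and Il1rn, Trem1, Timp1 and Pfkfb3 were higher in every one.

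Genes that restrain inflammation went both ways. Of 31 tested on this list 6 rose and 4 fell (32.3%), with a median log2 fold change of 0.29; 5 rose and 5 fell with median centring. Il10, the main anti-inflammatory cytokine of macrophages, was scarce with LPS alone, at 0, 0.689 and 5.90 CPM, and read 5.84, 12.3 and 63.5 CPM with norepinephrine. Its rise of 2.64 (adjusted p = 0.0045, 8 of 8 cultures) was uneven, 0.99 on plate 1 and 4.03 on plate 2, where the LPS cultures had almost none. Il1rn, which encodes the secreted antagonist of the interleukin-1 receptor, went from 74.5, 151.4 and 279.4 CPM to 327.4, 580.1 and 711.1 CPM without overlap (1.79, adjusted p = 4.6e-06), and by like amounts on both plates (1.92 and 1.66). Il4ra, the receptor chain for interleukin-4 and interleukin-13, read 10.2, 14.9 and 34.9 CPM with LPS and 32.6, 74.9 and 101.9 CPM with norepinephrine (2.08, adjusted p = 1.0e-05, 8 of 8). The binding partners of the NF-κB inhibitor A20, Tnip1 and Tnip2, rose by 1.24 and 1.19. Of these Tnip1 was separate in every culture, whereas Tnip2 kept its call in 7 of 15 fits that each left out 1 culture. Zc3h12a, an RNase that degrades cytokine transcripts, rose by 1.03 (adjusted p = 0.0068, 8 of 8; 0.34 on plate 1, 1.6 on plate 2).

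Its relative Zc3h12c was among the largest falls of all, from 11.1, 17.9 and 30.4 CPM to 0, 1.49 and 7.34 CPM (−3.15, adjusted p = 4.6e-06, 8 of 8 below every LPS culture). Another destabilizer of cytokine messages, Zfp36, fell as well (−0.86), as did the NF-κB cofactor Nfkbiz (−1.0) and Cish, a feedback inhibitor of cytokine receptors (−1.41). These last 3 were weak calls (adjusted p = 0.045, 0.025 and 0.044), which 4, 10 and 3 of the 15 fits with 1 culture left out kept. The feedback inhibitors Socs3 and Tnfaip3 did not pass the test (0.18 and 0.07), and limma did not call any other of the 21 uncalled members. One of them, the NF-κB inhibitor Nfkbia, had a log2 fold change of −0.48 (limma, adjusted p = 0.2), with 6 of 8 cultures below every LPS culture (exact permutation p = 0.00082, 0.047 after adjustment over all genes).

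Of 40 members of the type I interferon response, all tested, 3 were called and all 3 fell (7.5%, beside 3.37% called and 1.47% lower among all genes), with a median log2 fold change of −0.24. Irf1, a transcription factor shared by interferon and NF-κB responses, went from 807.1, 913.9 and 1247 CPM to 279.4, 407.8 and 568.7 CPM (−1.22, adjusted p = 0.00015, 8 of 8 below every LPS culture). Ifit2, an RNA-binding antiviral protein, and Ifih1, the cytosolic RNA sensor MDA5, fell less (−0.88 and −0.70). Both were weak calls, kept in 12 and 7 of the 15 fits with 1 culture left out. Of the 40 members 30 had a log2 fold change below 0. Among uncalled members, Cxcl10 had the separate groups given above (−0.77), and Rsad2, an antiviral enzyme, had −0.42 with 5 of 8 cultures below every LPS culture, which passed neither limma nor the exact test (exact permutation p = 0.03, 0.31 after adjustment over all genes). Ifit1 read 6849, 9161 and 16020 CPM with LPS and 8255, 10290 and 12450 CPM with norepinephrine, and Oasl1 2758, 3212 and 3637 CPM and 2574, 3056 and 4618 CPM. With median centring 5 members fell and with quantile normalization 2.

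Irf8, a transcription factor that defines the microglial and macrophage lineage and also acts downstream of interferon-γ, was outside the interferon list but among the 12 largest falls. It read 515.7, 2351 and 3048 CPM with LPS and 158.7, 183.0 and 453.9 CPM with norepinephrine, without overlap (−2.83, adjusted p = 1.7e-06). The level with LPS differed by plate, as all 3 cultures of plate 1 were below all 4 of plate 2, and the log2 fold change was −2.02 on plate 1 and −3.47 on plate 2.

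Of 17 receptor and catecholamine-handling genes 4 were expressed well enough to test, and limma called 0 changed (0 also at an unadjusted p under 0.05). Adra1a read 0, 0 and 10.6 CPM with LPS and 0, 1.81 and 7.10 CPM with norepinephrine, and Adra2b at most 3.72 CPM. Adrb1, Adra1b, Adra1d, Adra2a and Adra2c were listed at 0 in all 15 cultures, and Adrb3 was above 0 in a single LPS culture. Maoa, a mitochondrial enzyme that oxidizes amines, did not pass the test (0.83).

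Genes downstream of the receptor were tested next. Of 23 genes for G proteins, adenylyl cyclases, protein kinase A, its anchors and CREB-family factors, limma called 0 (1 at an unadjusted p under 0.05), with a median log2 fold change of 0.16. With 3.37% of all genes called, a list of this size does not stand apart by having none. Gnas, the stimulatory subunit, read 408.5, 606.5 and 691.9 CPM with LPS and 379.9, 644.9 and 841.3 CPM with norepinephrine. Of 23 genes that terminate such signals, phosphodiesterases, receptor kinases, arrestins and regulators of G protein signalling, only Rgs16 was called (4.35%). At an unadjusted p under 0.05 there were 8 of these 23, beside 1726 of all 10089 genes. Rgs16 fell by 2.29 (adjusted p = 0.02, 8 of 8 below the LPS median; −0.47 on plate 1, −3.89 on plate 2), and the call was lost without norepinephrine replicate 5 or LPS_hi replicate 6 (adjusted p up to 0.054). Pde4b, the phosphodiesterase often induced by cAMP in macrophages, read 83.3, 116.8 and 273.8 CPM with LPS and 108.4, 217.8 and 328.3 CPM with norepinephrine and did not pass the test.

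Early response genes of the kind that CREB drives were called often, but in both directions. Of 35 tested 5 rose and 5 fell (28.6%), with a median log2 fold change of 0.38. Fosl2, a subunit of the transcription factor AP-1, read 0.345, 1.49 and 15.2 CPM with LPS and 12.6, 56.7 and 87.4 CPM with norepinephrine (3.44, adjusted p = 1.0e-05, 8 of 8 above the LPS median). The orphan nuclear receptor Nr4a1 varied widely between cultures, from 0 to 53.4 CPM with LPS and from 4.74 to 146.5 CPM with norepinephrine, and its rise of 3.05 had an adjusted p of 0.017 (8 of 8 above the LPS median). That call was lost without the plate term, from the 15 cultures alone and on either plate alone. The exact permutation p of Nr4a1 was 0.15 after adjustment over all genes. Cebpb, a transcription factor of inflammatory and cAMP responses, went from 149.7, 197.7 and 366.6 CPM to 418.1, 586.3 and 673.1 CPM without overlap (1.27, adjusted p = 0.0017), and Odc1, the enzyme that starts polyamine synthesis, from 12.1, 45.7 and 77.6 CPM to 123.4, 177.9 and 245.6 CPM (2.12, adjusted p = 6.5e-05). Ier3, a survival gene, rose by 1.36 (adjusted p = 0.029, 8 of 8; 0.49 on plate 1, 2.08 on plate 2), a call kept in 10 of the 15 fits with 1 culture left out. Among the falls, Cited2, a cofactor that competes for the coactivators of CREB, was the clearest at 182.7, 262.1 and 373.5 CPM with LPS and 20.1, 73.1 and 120.3 CPM with norepinephrine (−2.20, adjusted p = 4.4e-05, 8 of 8 below every LPS culture). Klf6, Atf3, Jund and Junb, all early transcription factors, fell less (−1.13, −1.16, −0.93 and −0.70), and Junb kept its call in 6 of those 15 fits.

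This list was drawn up as genes of the kind that CREB drives, a property that was not tested here. The promoters of its members were searched for the cAMP response element TGACGTCA and for its core TGACG, on both strands. The window was the 250 bases before and 50 after each start in RefSeq (GRCm38.p6). Every full element also holds the core. All 10 called members had a promoter in this table. The full element was in 0 of them, and the core was in 3 of the 5 that rose and 2 of the 5 that fell. Among the 25 uncalled members 15 had a promoter, 3 with the full element and 14 with the core. The promoters of Nr4a1 (chr15:101266596-101266895, plus strand) and Cebpb (chr2:167688665-167688964, plus strand), which rose, and Atf3 (chr1:191183284-191183583, minus strand), which fell, are printed 5′ to 3′ to show where the core lies; capitals mark TGACG or, where the match is on the other strand, CGTCA.
Nr4a1: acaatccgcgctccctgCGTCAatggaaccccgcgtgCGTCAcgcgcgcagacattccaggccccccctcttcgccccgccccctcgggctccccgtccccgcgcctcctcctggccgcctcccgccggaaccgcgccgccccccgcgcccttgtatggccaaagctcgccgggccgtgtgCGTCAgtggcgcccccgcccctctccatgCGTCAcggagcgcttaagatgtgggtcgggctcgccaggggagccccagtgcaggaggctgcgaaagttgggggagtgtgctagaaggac
Cebpb: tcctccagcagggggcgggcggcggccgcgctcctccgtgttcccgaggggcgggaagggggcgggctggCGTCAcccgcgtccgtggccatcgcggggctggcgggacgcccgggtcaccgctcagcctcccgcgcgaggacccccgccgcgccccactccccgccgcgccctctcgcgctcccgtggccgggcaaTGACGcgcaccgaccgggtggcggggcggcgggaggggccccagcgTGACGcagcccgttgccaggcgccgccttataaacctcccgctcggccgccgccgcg
Atf3: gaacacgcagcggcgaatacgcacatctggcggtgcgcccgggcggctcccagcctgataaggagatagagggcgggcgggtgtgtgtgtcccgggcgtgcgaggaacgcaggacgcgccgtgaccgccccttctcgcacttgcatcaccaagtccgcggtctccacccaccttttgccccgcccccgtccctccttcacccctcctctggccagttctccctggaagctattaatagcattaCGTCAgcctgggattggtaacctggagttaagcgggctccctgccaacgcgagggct

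The same search over all genes gave shares to set these counts beside. The full element was in 3.29% of the 152 higher genes with a promoter, 4.72% of the 106 lower ones, 3.92% of the 7347 tested and 2.03% of all 27025 genes in the table. The core was in 30.9%, 32.1%, 37.1% and 23% of the same groups. The AP-1 element TGANTCA was in 9.21% of higher and 6.6% of lower genes, beside 6.22% of those tested and 8.97% of all. Among the 80 genes with a promoter that were higher with norepinephrine alone, a comparison described further on, 3.75% had the full element, 47.5% the core and 13.8% the AP-1 element. These shares are given with no test, and letters found in a window do not show that a factor bound there.

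Prostaglandin genes were divided. Of 22 tested in a list of prostaglandin, nitric oxide and itaconate genes 2 rose and 2 fell (18.2%). Ptges, the inducible synthase of prostaglandin E2, went from 101.0, 166.4 and 389.6 CPM to 445.6, 539.6 and 776.5 CPM without overlap (1.77, adjusted p = 0.00037). Ptgs2, the cyclooxygenase that supplies its substrate, fell from 125.7, 176.4 and 217.6 CPM to 55.3, 85.5 and 140.9 CPM (−0.98, adjusted p = 0.013, 8 of 8 below the LPS median). The paired receptors for prostaglandin E2, both of which raise cAMP, moved in opposite directions: Ptger2 rose by 2.56 (adjusted p = 0.019, 7 of 8) and Ptger4 fell by 2.25 (adjusted p = 0.027, 8 of 8; −0.98 on plate 1, −3.35 on plate 2), the latter kept in 10 of the 15 fits with 1 culture left out. Limma did not call Irg1, the source of itaconate, Cybb or Ncf1 (−0.15, −0.20 and −0.19).

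Among growth factors Vegfa rose, Spp1 fell, and 10 of the 12 tested were not called (16.7% called). Vegfa, the angiogenic factor, was listed at 0 in most LPS cultures (0, 0 and 4.14 CPM) and read 1.18, 10.7 and 26.01 CPM with norepinephrine (2.87, adjusted p = 0.00068, 8 of 8 above the LPS median). Spp1, which encodes osteopontin, read 622.5, 756.8 and 796.2 CPM and 146.8, 399.5 and 517.6 CPM (−1.03, adjusted p = 0.0044, 8 of 8 below every LPS culture). Igf1 did not pass the test (0.05). Of 27 genes of glycolysis and the hypoxia response 2 rose (7.41%), with a median log2 fold change of 0.55. Pfkfb3, which makes the activator of the glycolytic enzyme phosphofructokinase, went from 50.8, 90.3 and 192.1 CPM to 285.4, 470.7 and 614.4 CPM without overlap (2.21, adjusted p = 7.8e-06) and by 2.57 and 1.89 on plates 1 and 2. Ndrg1, a hypoxia-responsive gene, read 0.474, 5.86 and 15.3 CPM and 16.7, 56.1 and 75.4 CPM (3.16, adjusted p = 0.00017, 8 of 8 above every LPS culture). Limma did not call the enzymes Pkm, Gapdh and Aldoa (0.55, 0.38 and 0.45), which had 8, 7 and 8 of 8 cultures above the LPS median and an exact permutation p of 0.0024, 0.0065 and 0.03, none of which passed after adjustment over all genes (0.092, 0.15 and 0.31).

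On the lists of homeostatic microglia, heat shock and stress, and proliferation genes a single member was called. Limma called 0 of 19 tested homeostatic microglia genes (3 at an unadjusted p under 0.05), with a median log2 fold change of 0.07 that became −0.05 with median centring. Of 22 heat shock and stress genes only the chaperone Dnajb4 was called (4.55%); it fell by 1.82 (adjusted p = 0.024, 8 of 8 below the LPS median), and the call was lost without norepinephrine replicate 5 or 6 (adjusted p up to 0.061). For proliferation genes limma called 0 of 21 (2 at an unadjusted p under 0.05), with a median of −0.48. The plates differed here. Top2a, a marker of dividing cells, differed by 1.28 on plate 1 and −2.28 on plate 2, and Pcna, the replication clamp, fell short of the threshold of limma (−0.80, adjusted p = 0.059, 6 of 8 below the LPS median); with median centring 2 members fell and with quantile normalization 1.

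**Figure D3:**
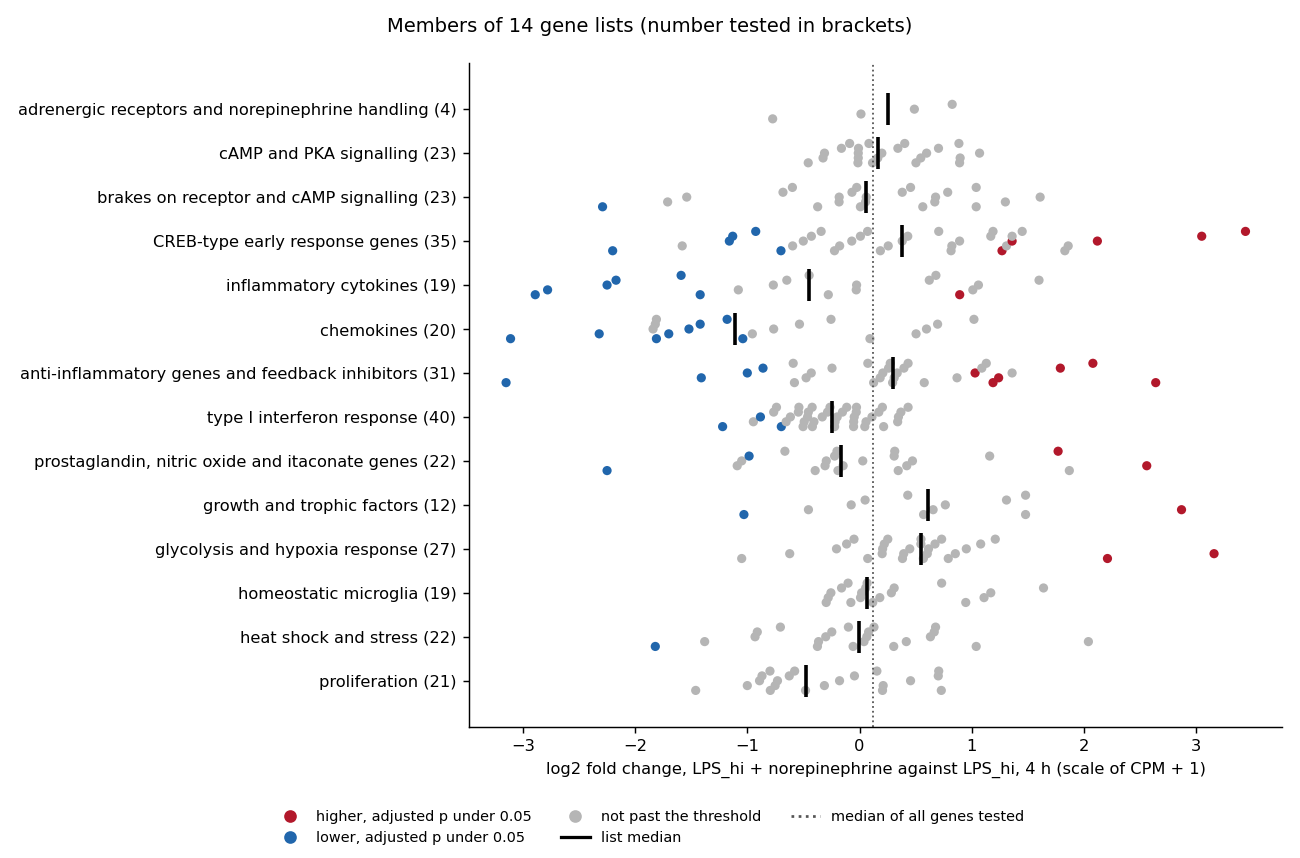
Log2 fold change with norepinephrine added to LPS (x axis) for the tested members of 14 gene lists, 1 point a gene, number tested in brackets; red, called higher, blue, called lower, grey, not called, black bar, list median, dotted line, median of all genes tested (0.12). Called chemokines and cytokines lie to the left, apart from Il1b, and called early response and anti-inflammatory genes lie on both sides.

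The largest rises outside the lists were varied in function. Trem1, a receptor that amplifies inflammatory signals in myeloid cells, was listed at 0 in 4 of 7 LPS cultures and read at most 2.04 CPM there, against 17.5, 31.4 and 54.0 CPM with norepinephrine (4.47, standard error 0.48, adjusted p = 7.1e-07, 8 of 8 above every LPS culture). Timp1, an inhibitor of matrix metalloproteinases, went from 0, 1.66 and 6.17 CPM to 11.5, 40.2 and 59.1 CPM without overlap (3.60, adjusted p = 9.0e-06) and by like amounts on both plates (3.65 and 3.61). Abca1, the exporter of cholesterol to lipoproteins, read 6.89, 45.5 and 110.8 CPM with LPS and 180.5, 254.0 and 515.9 CPM with norepinephrine (2.93, adjusted p = 2.1e-05, 8 of 8 above every LPS culture). Hilpda, a lipid droplet protein induced by hypoxia, rose by 2.66 and Cytip, a regulator of leukocyte adhesion, by 3.50, both without overlap. The list of rises also held Cacnb3, a subunit of voltage-gated calcium channels (3.31), Mtmr4, a phosphoinositide phosphatase (2.89), both without overlap, and Abcc4, a transporter that can carry cAMP out of cells (2.72, adjusted p = 0.0024, 8 of 8 above the LPS median).

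The largest falls outside the lists included secreted and surface proteins. Edn1, the vasoconstrictor endothelin-1, read 58.3, 107.2 and 203.0 CPM with LPS and 0.875, 15.1 and 59.7 CPM with norepinephrine (−3.27, adjusted p = 0.00017, 8 of 8 below the LPS median), with −1.58 on plate 1 and −4.70 on plate 2. Slamf7, a receptor of immune cells, went from 54.9, 112.8 and 265.3 CPM to 1.83, 15.5 and 75.9 CPM (−2.92, adjusted p = 0.001, 8 of 8 below the LPS median), with −1.34 on plate 1 and −4.24 on plate 2. The protease inhibitors Serpina3g and Serpina3f fell without overlap (−3.76 and −3.20, adjusted p = 0.0002 and 2.9e-05), with −1.56 and −5.69 for Serpina3g on plates 1 and 2 and −2.47 and −3.77 for Serpina3f. They belong to a cluster of near-identical genes among which reads may be split, so that the values of either are uncertain. Ppm1l, a protein phosphatase, went from 3.10, 8.38 and 16.5 CPM to 0, 0 and 1.90 CPM (−2.88, adjusted p = 0.0011, 8 of 8 below every LPS culture). M1ap (−2.97, adjusted p = 0.016, 8 of 8 below the LPS median) differed mainly on plate 2 (−0.54 and −5.07), and its call was 1 of the 25 among named genes that were lost from the 15 cultures alone. It and the unnamed gene models Gm14636 (−3.38) and Gm37747 (−3.26) completed the 12; 25 of the 340 called genes were such unnamed models.

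To see whether these changes also stood against another addition to LPS, the same norepinephrine cultures were compared with LPS_hi plus nicotine and with LPS_hi plus ATP. Both comparisons share the norepinephrine cultures with the one above, so their values are set side by side only. Against nicotine 131 genes differed (1.3%), 55 higher and 76 lower, and against ATP 380 (3.77%), 154 higher and 226 lower. On plate 2 the 4 norepinephrine cultures were in one library pool, with 6836 to 7069 genes above 5 CPM, and the 4 nicotine cultures in another, with 7683 to 8164. The ATP cultures of that plate were in both. With pool in place of plate in the model, fits chosen after seeing the data, 46 genes differed from nicotine, 40 of them among the 131, and 318 from ATP, 288 of them among the 380. With plate in the model, of 20 chemokines tested 3 were lower than with nicotine and 0 higher, and 3 were lower and 3 higher than with ATP. Of 19 inflammatory cytokines, 4 were lower and 2 higher than with nicotine, and 4 were lower and 4 higher than with ATP. The cytokine medians were 0.13 and 0.21 on the log2 scale, beside −0.14 and −0.01 for all genes. Il6 was called higher in both comparisons. Some genes differed from all 3 references. Tnf was lower on the log2 scale than with nicotine (−1.71) and than with ATP (−1.83), where its medians were 11830 and 12880 CPM against 3685 CPM with norepinephrine, and both differences were called. Ifnb1, at medians of 17.1 CPM with nicotine and 65.9 CPM with ATP against 2.31 CPM, was lower too (−2.53 and −4.76, both called). The same held for Ccl3, with medians of 804.7 and 977.9 CPM, for Zc3h12c and for Cited2, and in the other direction for Trem1 (2.88 and 2.32 higher), Timp1 (3.18 and 3.28), Il1b (1.38 and 1.86), Il4ra (1.75 and 1.77), Cebpb and Ptges. With pool in the model all of these kept their calls against both except Cebpb, which lost both (0.53 and 0.75).

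Other genes stood close to at least one of the other additions. Il10 had a median of 1.38 CPM with nicotine but 20.0 CPM with ATP, against 12.3 CPM with norepinephrine, and Il1rn 60.3 and 613.0 CPM against 580.1 CPM; both were called against nicotine (2.60 and 3.14) and not against ATP. With pool in the model the difference of Il10 from nicotine was 2.54 and no longer called (adjusted p = 0.083). Hilpda was higher still with ATP, at a median of 336.7 CPM, and so lower with norepinephrine (−2.19, called). Ptgs2, which fell against LPS alone, was higher with norepinephrine than with nicotine (1.58, called, also with pool in the model), where its median was 27.6 CPM against 85.5 CPM, and it was not called against ATP (−0.50). Irf8, at medians of 456.3 CPM with nicotine and 669.2 CPM with ATP, had lower medians in both than the 2351 CPM of LPS alone. No test result is given here for that difference. For Irf8, norepinephrine differed from ATP (−1.59, called) and not, at the threshold, from nicotine (−1.07). With pool in the model it did differ from nicotine (−1.47, limma, adjusted p = 0.045). Ccl2 was at 139.2 and 133.9 CPM in these groups, beside 154.6 CPM with norepinephrine and 504.7 CPM with LPS alone, and Ccl9, Cish, Zc3h12a and Cxcl9 likewise showed no called difference from either. The same held for Cytip, Ndrg1, Nr4a1 and Abcc4 among the 12 largest rises. It also held for Serpina3g, Serpina3f, M1ap and Ppm1l among the 12 largest falls, and for Il12b, Il18 and Ccl7 among other named genes. The nicotine cultures were all in edge or corner wells, as 4 of the 6 ATP cultures were in edge wells.

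**Figure D4:**
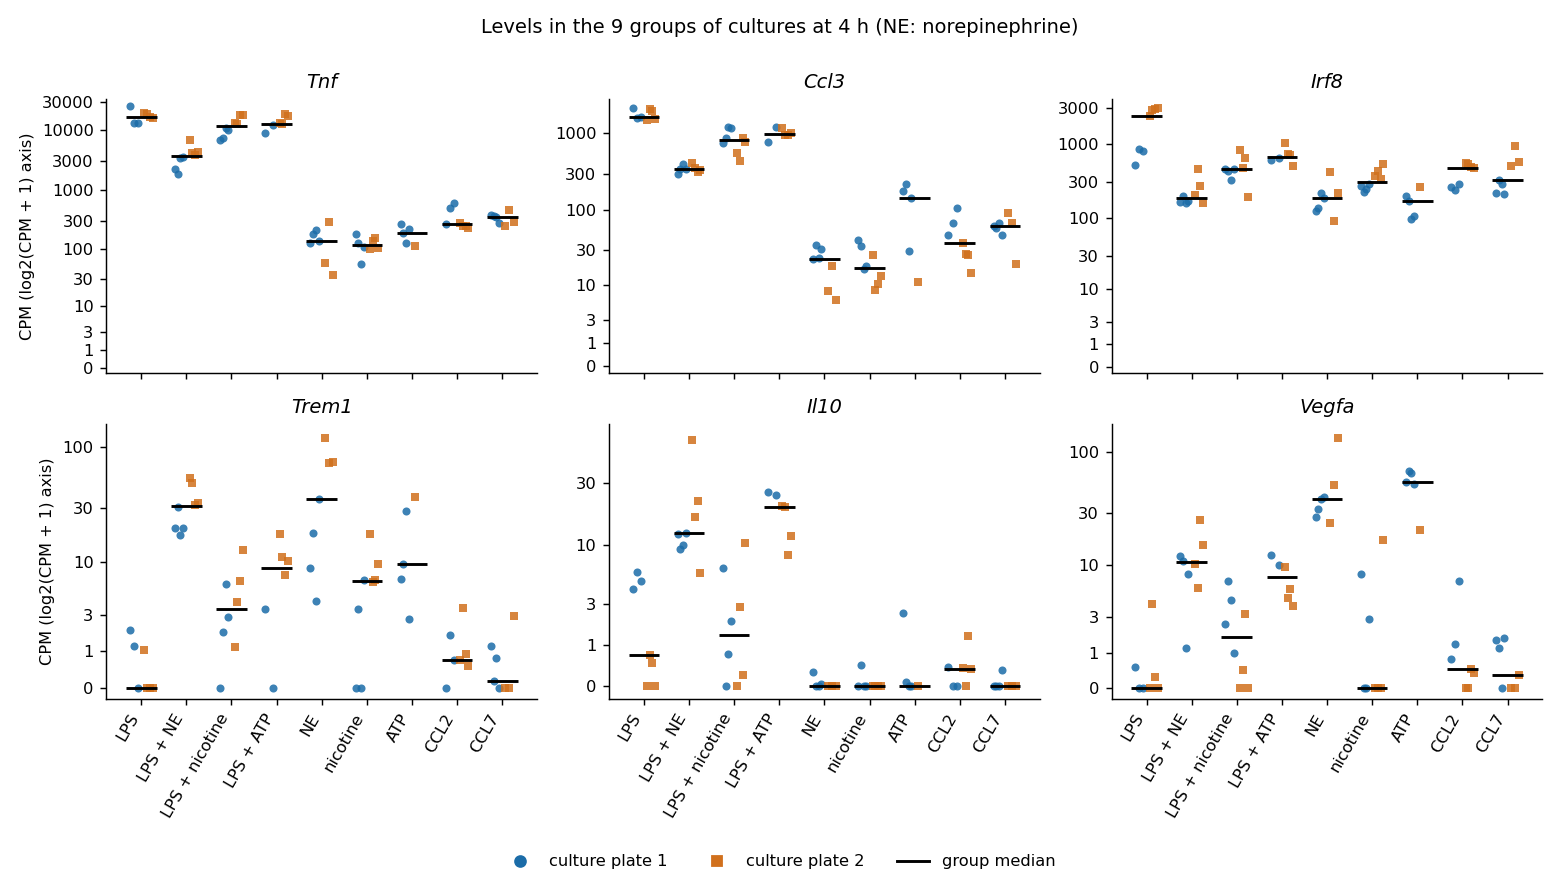
CPM of 6 genes (y axis, spaced by log2(CPM + 1)) in each culture of the 9 groups at 4 h (x axis; NE, norepinephrine); blue circles, plate 1, orange squares, plate 2, black line, group median. Tnf had its highest median with LPS alone and stood lower with norepinephrine (median 3685 CPM) than with nicotine or ATP added, whereas the median of Il10 with LPS and ATP (20.0 CPM) was above that with norepinephrine (12.3 CPM).

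Whether norepinephrine did the same without LPS was asked in other cultures, 7 with norepinephrine alone against 7 with CCL2 and 7 with CCL7, which share no culture with the LPS comparison. Here 535 of 11370 genes were called (4.71%), 113 higher (0.994%) and 422 lower (3.71%). The median gene moved by −0.32, and the balance of calls differed between plates, with 170 higher and 112 lower on plate 1 and 70 higher and 437 lower on plate 2. The groups also differed in library pool, the set of libraries that were pooled together. On plate 1 norepinephrine was in one pool and both chemokines in the other. On plate 2 all 3 norepinephrine cultures and 2 of the 3 CCL7 cultures were in a pool with 6646 to 7242 genes above 5 CPM in these cultures, and the remaining CCL7 culture and all 4 CCL2 cultures in one with 8846 to 9185. With pool in place of plate in the model 454 genes were called, 195 higher and 259 lower, the median gene moved by −0.06, and 204 of the 535 were called again. The number and the balance of these calls therefore depend on how pools are modelled. Norepinephrine and chemokine cultures met within a pool only on plate 2, as 3 cultures against 2 with CCL7. These 2 had 1006000 and 1008000 reads. Any further comparison in the fit with pool runs through other groups, which limits what a call kept or lost there shows. Since the reference cultures received chemokines and not a vehicle, the contrast is not one with untreated cells. Of 36 early response genes of the CREB type 10 rose and 4 fell (38.9%), with a median log2 fold change of 0.84. Crem, a cAMP-induced member of the CREB family, rose by 4.26 here. With LPS present its difference was 0.89 and not called, and the difference between both effects was called (−3.41). Fos and Fosb, subunits of AP-1, rose by 1.8 and 2.32 alone. With LPS their differences of 1.83 and 1.17 were not called, with an adjusted p of 0.053 for Fos, and the difference between both effects was not called either. In the fit with pool, whose values for single genes were looked up after seeing the data, Crem, Fos and Fosb kept their calls. Of 24 genes that terminate receptor and cAMP signals 3 rose and 0 fell, the phosphodiesterases Pde4b (2.21) and Pde3b (1.72) and the kinase Sik1 (1.12), while 16 of the 24 had values below 0 and their median was −0.27. With pool in the model none of these 3 was called, at values of 2.20, 1.88 and 0.77 for Pde4b, Pde3b and Sik1. Of 27 genes of the cAMP machinery Crem rose and Prkacb, Rapgef5 and Akap13 fell.

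Several genes had called changes in the same direction with and without LPS. Trem1 rose by 4.26 alone and 4.47 with LPS, Fosl2 by 3.20 and 3.44, Vegfa by 4.67 and 2.87, Cytip by 5.58 and 3.50, and Hilpda by 3.45 and 2.66. The median of Trem1 was 35.8 CPM with norepinephrine alone, beside 0.713 CPM with CCL2 and 0.147 CPM with CCL7. Tnf fell by 1.42 without LPS, from medians of 267.7 and 350.7 CPM to 135.6 CPM, and it fell by 2.25 with LPS; Cited2 had −2.0 and −2.20. With pool in the model the rises and the fall of Cited2 without LPS kept their calls, and that of Tnf did not (−1.29, adjusted p = 0.092). Limma called the difference between both effects in 0 of these 7 genes (3 at an unadjusted p under 0.05, Vegfa, Cytip and Tnf), which does not show that the effects were equal.

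The difference itself was tested in a model of all 9 groups at 4 h. It was called for 209 of 12055 genes (1.73%), 175 with a higher and 34 with a lower value in the presence of LPS, while the median gene differed by 0.41. This difference takes over the shift of the median gene without LPS (−0.32). With pool in place of plate, a fit chosen after seeing the data, 107 genes were called, 75 higher and 32 lower, 95 of them among the 209, and the median gene differed by 0.25. Of the 65 named genes called with LPS the difference was called for 21, of which 14 were tested without LPS as well, and 10 of these 14 were called again with pool in the model. As the 65 were chosen by their change with LPS, which is part of the difference, this share cannot be set against that of all genes. Timp1, with 0.14 alone and 3.60 with LPS, differed by 3.37, and Pfkfb3, with −1.65 alone, by 3.78. Mtmr4 had opposite called changes, −2.27 alone and 2.89 with LPS, although the fall alone was not called with pool in the model (−1.76). Irf8 fell in both settings and further with LPS (difference −1.81). Serpina3g, Serpina3f, Zc3h12c, Slamf7, Il12b, Ifnb1 and Il10, the other 7 of the 21, were too low without LPS to be tested there. A fall of the first 6 could not have been seen, so their difference restates the change with LPS and does not compare effects. Since one effect is measured against LPS alone and the other against chemokines, each difference also carries the difference between these references.

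**Figure D5:**
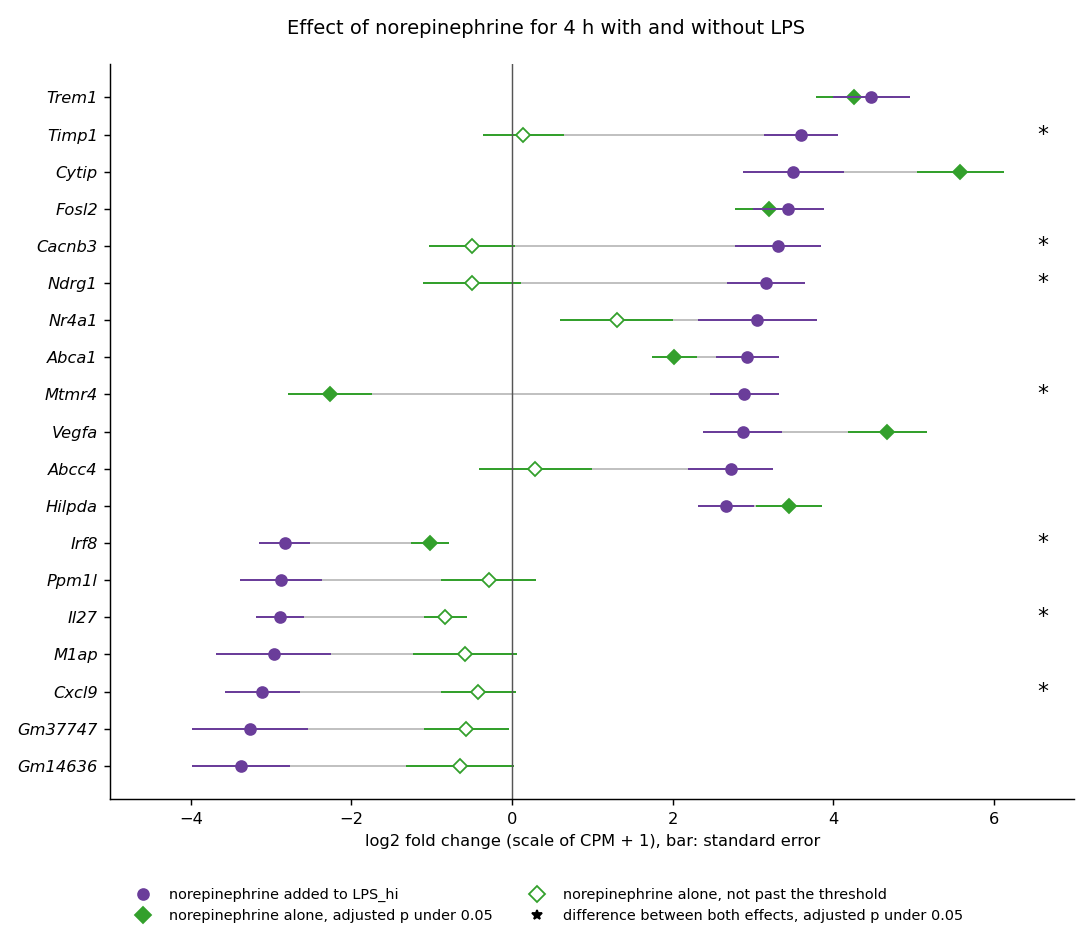
Log2 fold change with norepinephrine added to LPS (purple circles, against LPS alone) and with norepinephrine alone (green diamonds, against the mean of CCL2 and CCL7; filled, called) for 19 of the 24 genes with the largest changes; bars, standard error, stars, difference between both effects called. Serpina3g, Edn1, Serpina3f, Zc3h12c and Slamf7 are left out because they were too low without LPS to be tested. Trem1 and Fosl2 had nearly equal values, and Timp1, Cacnb3 and Ndrg1 were not called without LPS.

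Later time points gave less clear results. With norepinephrine alone for 24 h 7 genes of 11556 were called (0.0606%), Trem1 (1.64) and Ccl9 (1.46) among them, against 40 untreated cultures. Without the plate term 10 were called, of which Trem1, Ccl9 and Pf4 were among the 7. After 72 h 1015 of 10844 were called (9.36%) against 25 untreated cultures, but 15 without the plate term, and this count depends on how plates are modelled. All 6 norepinephrine cultures at 72 h were in middle wells. On the plates they shared with untreated cultures, the latter were all in top-edge or corner wells. Well position and treatment therefore cannot be told apart within those plates. The lower LPS dose, 0.00001 µg/µl, was combined with norepinephrine for 72 h in 3 cultures, all in bottom-edge wells of 1 plate, and compared with 11 cultures given that dose alone. There 137 of 9319 genes were called (1.47%), 17 higher and 120 lower, including 8 of 14 tested chemokines, of which 7 fell and Cxcl14 rose, and Tnf, which fell by 1.52. Il1b, which rose at 4 h, fell by 3.36 (limma, adjusted p = 0.0027), and Spp1, which fell at 4 h, rose by 1.72 (adjusted p = 0.018). The single plate that held both groups had 4 of those 11 cultures, in another library pool and in middle and right-edge wells. On it 4 genes were called, and whether this is due to fewer cultures or to the plates left out cannot be told apart. Pool, well and treatment coincide there. Leaving out replicate 1, 2 or 3 of the norepinephrine cultures left 28, 20 or 38 calls.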

How the data were processed

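RNA of single cultures was amplified from its 3′ end and sequenced. The authors quantified reads with Salmon 0.7.1, summed them over the transcripts of a gene and deposited them as CPM, scaled to 1000000 mapped reads of the library. The paper calls these values TPM, but no correction for transcript length was made, so CPM of different genes served only to rank or sum members of a list. The submitters' processing notes list mm8 as the genome build while the paper names an Ensembl release; no coordinates of that annotation were used. The authors left out libraries of low depth. The file is not in whole reads: multiplying by the recovered depth brought 75.6% to 84.6% of values within 0.1 of a whole number in the 15 cultures, so no count model was used.

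Of 784 culture columns 155 were used, with 45581 genes. Groups, times and plates were taken from the labels and file headers. Genes with more than 5 CPM in at least 4 of the fitted cultures were tested with limma 3.58.1 (R 4.3.3) on log2(CPM + 1), with culture plate as a term where the groups shared at least 2 plates and Benjamini-Hochberg adjustment over all genes tested; the call was an adjusted p under 0.05. Norepinephrine with LPS was compared in a fit of the 4 LPS_hi groups, norepinephrine alone in a fit of the 5 groups without LPS, the difference of both effects in all 9 groups at 4 h, and later times in fits of their own groups. An exact two-sided rank test permuted labels within plates (2450 arrangements); its adjustment over all 10089 genes, in place of the named genes, was chosen after seeing the data. Alternatives varied the covariate, the cultures, the pseudocount, the filter, the scaling, the variance model and a minimum fold. Tables were made in Python 3.11.15 with pandas 2.3.3 and numpy 2.4.6, and figures with matplotlib 3.10.9; scipy 1.17.1 was loaded for ranks. Promoters came from RefSeq.

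The named genes were the 12 largest rises and 12 largest falls among called genes with a mean of at least 5 CPM in the higher group and the same direction on both plates, every called member of 14 gene lists, the 3 uncalled members of each with the highest mean CPM, and the adrenergic receptors. Some genes that this rule or the lists hold are not reported here. Cd14, Crem, Fos, Fosb, Pde3b and Sik1 fall outside this rule and were named after their values were seen. Members and lists were chosen with earlier results of these data known. Microglia isolated from whole mice were not used here.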

Additional observations from a re-analysis of the deposited data

Results flagged for a closer look

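In 16 of 136 groups of values examined, 1 culture lay far from the others, measured as its gap to the nearest culture over the range of the group. The rule gives about 1 in 20 for values from 1 normal distribution. These groups span 2 plates, some hold values at 0, and the genes were chosen from the same cultures. The count of 16 is therefore not read against that rate. For genes the gap over range was taken on log2(CPM + 1), although the values beside it are in CPM, and for depth on reads. Among cultures with LPS and norepinephrine, replicate 8 was low for Fosl2 (gap over range 0.53, 12.6 CPM against 35.6 CPM in the nearest culture) and for Ptger2 (0.58, 0 against 7.66 CPM). Replicate 6 was low for Ndrg1 (0.53, 16.7 against 37.6 CPM) and high for Mtmr4 (0.67, 38.5 against 13.99 CPM). Replicate 5 was low for Il27 (0.84, 89.3 against 322.2 CPM), Il4ra (0.55, 32.6 against 61.4 CPM) and Spp1 (0.53, 146.8 against 287.6 CPM). Replicate 3 was high for Ppm1l (0.69, 1.90 against 0.389 CPM), and replicate 7 was low for Il18 (0.78, 1.53 against 10.8 CPM).

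Among cultures with LPS alone, replicate 4 was low for Jund (0.61, 532.3 against 787.7 CPM), Cish (0.68, 5.62 against 32.6 CPM), Zfp36 (0.57, 526.7 against 1044 CPM) and Ptger4 (0.73, 1.05 against 32.7 CPM). Replicate 5 was high for Vegfa (0.75, 4.14 against 0.509 CPM), replicate 3 was low for Rgs16 (0.58, 5.82 against 20.96 CPM), and replicate 1 had the highest depth (0.76, 13740000 against 4216000 reads).

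For 21 of the 65 named genes called with LPS, the effect of norepinephrine was called different between the settings with and without LPS in the test of the difference itself, and 7 of these were too low without LPS to be tested there. The 65 were chosen by their change with LPS, which is part of this difference, so the count is not independent of that choice. Values are the log2 fold change with LPS minus that without, with the adjusted p from limma. The difference was positive for Mtmr4 (5.13, 5e-06), Cacnb3 (3.79, 0.0032), Pfkfb3 (3.78, 0.00063), Ndrg1 (3.68, 0.0077), Timp1 (3.37, 0.0062), Il4ra (2.54, 0.00041) and Tnip1 (1.43, 0.026). It was negative for the secreted factors Cxcl9 (−2.71, 0.021), Ccl2 (−2.37, 0.033), Ccl9 (−2.20, 0.00014) and Il27 (−2.17, 0.0082), and for Irf8 (−1.81, 0.0046), Jund (−1.26, 0.04) and Zfp36 (−1.19, 0.04). With library pool in place of culture plate, a fit chosen after seeing the data, 10 of these 14 kept the call. Cxcl9, Ccl2, Jund and Tnip1 did not, at differences of −2.50, −2.26, −1.13 and 1.14. The 7 genes too low without LPS were Serpina3g (−3.54, 0.0011), Zc3h12c (−3.39, 0.0037), Serpina3f (−3.00, 7.2e-05), Slamf7 (−2.77, 0.032), Ifnb1 (−2.44, 1e-05), Il12b (−1.96, 0.016) and Il10 (2.82, 0.002). A fall without LPS could not have been seen in them, so the negative values restate the change with LPS. The reference was LPS alone in one setting and CCL2 and CCL7 in the other.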

How the results depend on the processing

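With LPS, 340 genes became 208 with no covariate, 116 from the 15 cultures alone and 21 on plate 1 alone, where fewer cultures were fitted in the latter 2; the cause of the first change was not tested. The other settings gave 285 to 427, and leaving out each culture in turn 291 to 409. Without LPS, 535 became 190 against CCL7 only, 314 with no covariate and, chosen after seeing the data, 282 on plate 1 alone. With library pool in place of plate it was 454, but 43% of calls were higher in place of 21.1%, the median gene moved by −0.06 in place of −0.32, and 204 were shared. With pool, chosen after seeing the data, the difference of both effects gave 107 in place of 209, nicotine 46 in place of 131 and ATP 318 in place of 380. With no covariate these gave 103, 61 and 183, and norepinephrine alone for 72 h gave 15 in place of 1015; the cause was not tested. At 24 h 4 of 7 were at least 2-fold, and no covariate gave 10, 3 of them among the 7. The 137 calls at the lower dose became 4 on the shared plate, chosen after seeing the data, and 20 to 38 with 1 of the 3 cultures left out; its fit already lacked a plate term, since the groups share 1 plate, so the planned fit with no covariate was not run separately. Of the 65 called genes named by the rule above, which leave out Cd14, 53 kept the call in all 15 fits with 1 culture left out. Of these, 39 kept it also in all other settings that used both plates, and 0 of the 65 reversed. Plate 1 alone kept 9, plate 2 alone 49 and, chosen after seeing the data, cultures of at least 2000000 reads 60. The 15 cultures alone kept 40 and lost 25. Lost there were Nr4a1, M1ap, Rgs16, Junb, Jund, Atf3, Ier3, Dnajb4, Il1b, Il18, Tnfsf9, Ccl2, Ccl7 and Cxcl2. So were Cish, Tnip2, Nfkbiz, Zfp36, Zc3h12a, Ifit2, Ifih1, Ptgs2, Ptger2, Ptger4 and Spp1. The highest adjusted p with 1 culture left out was 0.099 for Cish, 0.091 for Tnip2 and Zfp36, 0.085 for Ifih1, 0.079 for Junb, 0.075 for Ier3, 0.074 for Ptger4, 0.062 for Ifit2 and 0.057 for Nfkbiz. No paired analysis was possible because replicate numbers do not match cultures between groups. Depth was lowest at 1202000 reads among the 15 cultures and at 1006000 in CCL7 replicate 5 among all cultures used, where 1 CPM is about 1 read, which limits genes of a few CPM.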
